A study of Homo sapiens with 6 samples.

Results

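The genes described here are 38 genes of cell adhesion, read in a T-cell leukemia line after transduction with a hairpin against MEF2C or with a scramble hairpin. They were chosen by symbol: 9 integrin alpha subunits, 5 integrin beta subunits, 2 cytoplasmic integrin adaptors, 14 receptors of the immunoglobulin family, 5 tetraspanins, and a group of 3 made up of SELPLG, CD44 and CD99L2. All 38 were found among the 78932 gene identifiers in the count files, and 34 of them passed the filter on low counts that left 17677 genes for testing.

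RNA was sequenced from Karpas-45, a human cell line established from T-cell acute lymphoblastic leukemia, which the labels describe as leukemic blasts of bone marrow. The MEF2C hairpin libraries came from cells given a lentiviral vector with a GFP-linked short hairpin RNA against MEF2C, labelled MEF2C KD, and the others from cells given a scramble control, labelled WT. GFP-positive cells were sorted 120 hours after transduction, and no drug was given to either group. There were 3 libraries per group, from 1 line and 1 hairpin, and the labels call them technical replicates, so that the p-values below measure only the spread between such replicates.

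Integrins are receptors of an alpha and a beta chain that hold cells to the extracellular matrix or to other cells. They switch from a resting to a binding form when talin and kindlin attach to the beta tail. In T cells the leukocyte integrin LFA-1, made of ITGAL and ITGB2, binds ICAM proteins at the contact with other cells, while integrins built on ITGB1 bind fibronectin, laminin and VCAM1. Tetraspanins are small membrane proteins that gather integrins and immunoglobulin-family receptors into patches of membrane.

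Reads assigned to genes numbered 58748597, 97077335 and 50991704 in MEF2C hairpin replicates 1 to 3, against 63228784, 45560303 and 60717141 in scramble replicates 1 to 3. MEF2C, a MADS-box transcription factor, had 2, 0 and 0 reads in the MEF2C hairpin libraries and 2, 1 and 0 in the scramble libraries. Every library lay under the floor of 3 reads, which is 0.0304 to 0.0672 CPM (counts per 1000000 reads of a library), so the targeted gene could not be detected at this depth with either hairpin and cannot check the labels. T-lineage markers were present, with 11 of 11 genes tested and a summed level of 2865 to 2926 CPM in MEF2C hairpin libraries, against 2769.9 to 2833 CPM in scramble libraries. Of these 11, 7 rose (63.6%, against 13.5% of all tested genes) and 1 fell (9.09%, against 15.3%). Reads aligned to more than 1 place took 16.1% in MEF2C hairpin replicate 3 and 3.56% to 6.86% in the other libraries. The adhesion calls below are given with and without each library.

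Of the 34 tested adhesion genes, 16 differed between the groups (edgeR quasi-likelihood test, Benjamini-Hochberg adjusted p under 0.05), which is 47.1% of them, where 28.8% of all tested genes did. Of the 34, 14 were higher with the MEF2C hairpin (41.2%), against 13.5% of all tested genes, and 2 were lower (5.88%), against 15.3%. After correction for GC content and gene length, the split was 13 higher and 4 lower. Among genes with a mean of at least 10 CPM, 11 of 24 adhesion genes were higher (45.8%), against 16.6% of all such genes, and 2 were lower (8.33%), against 27.5%. The CPM values of the groups did not overlap in 19 of the 34 (55.9%), and in 39.9% of all tested genes. The median log2 fold change, MEF2C hairpin over scramble, was 0.10 over the 34 genes and 0.00 over all tested genes. Most changes were small: the median absolute log2 fold change was 0.15 over the adhesion genes and 0.13 over all tested genes. The line is a bulk culture, and fewer cells with a transcript cannot be told apart from less RNA per cell.

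**Figure D1:**
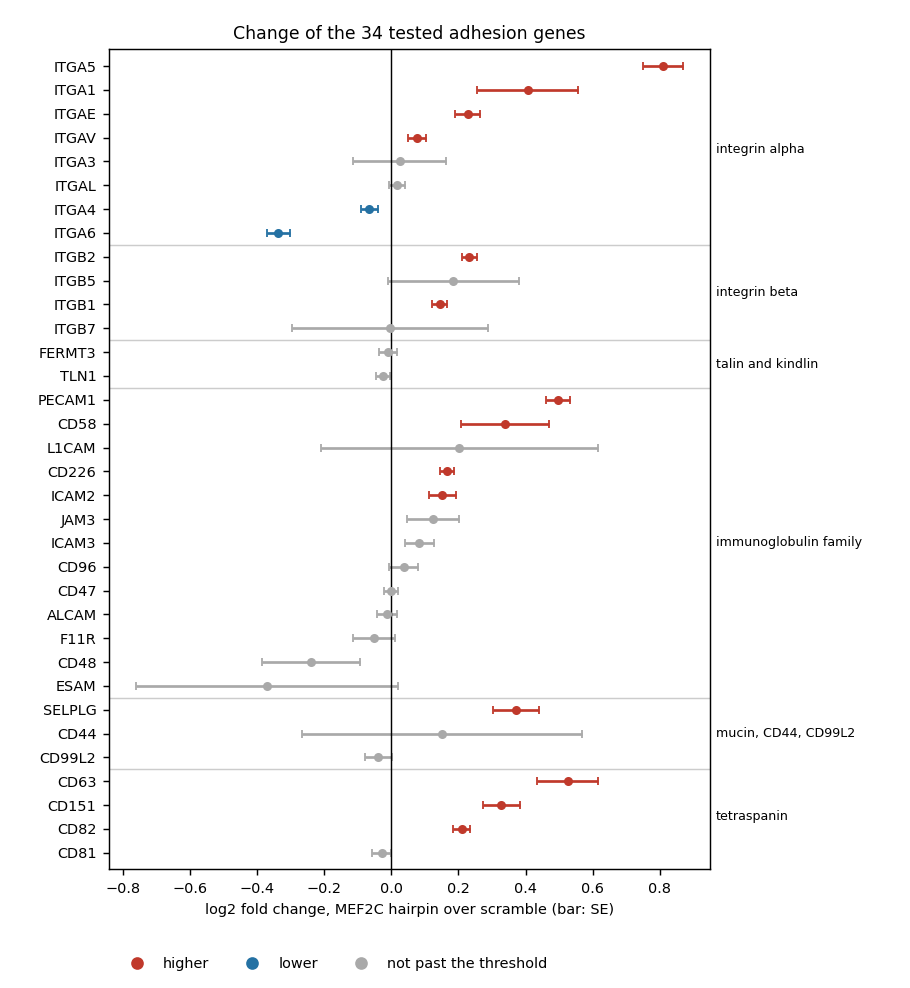
Log2 fold change of the 34 tested adhesion genes (x axis, MEF2C hairpin over scramble, bars are SE), sorted within roles. Red points were higher (14 genes), blue points lower (2 genes, both integrin alpha chains) and grey points did not pass the threshold, among them both adaptors.

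Of the 16 calls, 12 were kept under all 14 alternative settings: ITGA5, ITGAE, ITGB1, ITGB2, PECAM1, ICAM2, CD226, SELPLG, CD82, CD63 and CD151 were higher, and ITGA6 was lower. The other 4, ITGA1, ITGAV, CD58 and ITGA4, lost their call under some settings and are given with their range.

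**Figure D2:**
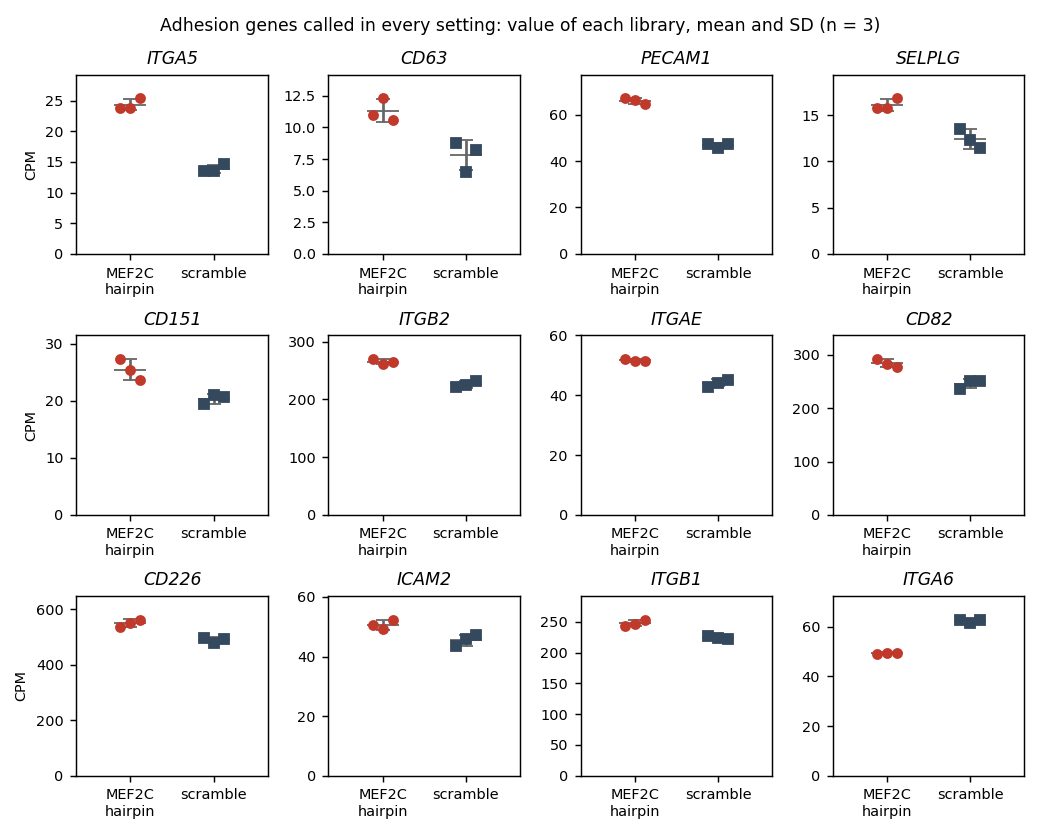
Level of the 12 genes called under every setting, in CPM on a linear axis from 0 (y axis), with each library as a point, the mean as a bar and the SD as whiskers (n = 3). MEF2C hairpin libraries stand left of scramble libraries in each panel, and the groups do not overlap in any of the 12. The genes were picked by their calls in these same libraries, so the lack of overlap is no separate result.

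Promoter windows are shown for the genes with the largest changes in either direction among well-detected integrin chains, ITGA5 and ITGA6, for CD82, the highest of the 38 genes per kilobase of all annotated exons, and for CD9, whose reads stood almost wholly in the MEF2C hairpin libraries. Each is a RefSeq window on GRCh38.p14 of 250 bases before and 50 after an annotated start, on the gene's own strand and 5′ to 3′. For genes with several starts the window with the most CpG pairs was taken. Capitals mark matches, on either strand, to GGGCGG (SP1), CCGGAA (ETS), TGTGGT (RUNX), TGANTCA (AP-1) or the MEF2 consensus. The windows lie at chr12:54419217-54419516 on the minus strand (ITGA5), chr2:172427336-172427635 on the plus strand (ITGA6), chr11:44565413-44565712 on the plus strand (CD82) and chr12:6200150-6200449 on the plus strand (CD9).
ITGA5 promoter: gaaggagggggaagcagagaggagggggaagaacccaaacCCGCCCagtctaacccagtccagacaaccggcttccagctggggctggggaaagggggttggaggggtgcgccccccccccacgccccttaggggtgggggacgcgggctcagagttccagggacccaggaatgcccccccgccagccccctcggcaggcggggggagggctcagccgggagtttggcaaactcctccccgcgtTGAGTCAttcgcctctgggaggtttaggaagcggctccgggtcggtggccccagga
ITGA6 promoter: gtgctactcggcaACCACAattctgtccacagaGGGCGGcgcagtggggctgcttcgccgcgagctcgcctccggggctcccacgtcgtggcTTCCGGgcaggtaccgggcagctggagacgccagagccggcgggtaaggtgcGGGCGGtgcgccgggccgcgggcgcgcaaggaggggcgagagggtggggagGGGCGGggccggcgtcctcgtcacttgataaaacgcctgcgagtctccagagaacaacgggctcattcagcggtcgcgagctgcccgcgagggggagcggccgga
CD82 promoter: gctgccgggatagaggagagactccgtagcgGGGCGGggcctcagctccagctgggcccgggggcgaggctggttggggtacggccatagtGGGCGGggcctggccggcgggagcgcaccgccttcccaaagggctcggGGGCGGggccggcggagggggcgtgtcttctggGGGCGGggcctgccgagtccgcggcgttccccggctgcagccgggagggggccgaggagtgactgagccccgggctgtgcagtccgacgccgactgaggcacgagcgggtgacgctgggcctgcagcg
CD9 promoter: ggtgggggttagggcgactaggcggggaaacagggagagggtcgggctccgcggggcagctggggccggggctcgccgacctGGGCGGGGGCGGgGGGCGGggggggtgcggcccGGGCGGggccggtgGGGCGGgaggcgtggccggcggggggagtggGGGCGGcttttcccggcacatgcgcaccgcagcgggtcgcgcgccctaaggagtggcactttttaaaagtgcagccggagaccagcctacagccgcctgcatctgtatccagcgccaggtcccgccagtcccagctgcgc

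The ITGA5 window held 1 SP1 match and 1 AP-1 match, and the ITGA6 window 3 SP1, 1 ETS and 1 RUNX match. The CD82 window held 4 SP1 matches and the CD9 window 6, and the capitals of different motifs did not overlap in any of the 4. Windows were found for 25 of the 38 genes, 45 windows in all. A MEF2 match stood in 1 of these 45, that of CD58, and in 3.01% of the 34796 windows of all genes. SP1 matches stood in 28 of the 45, against 44.9% of all windows, ETS matches in 9, against 17.2%, RUNX matches in 3, against 13.1%, and AP-1 matches in 4, against 7.73%. The AP-1 matches were in windows of ITGA5, CD63, CD226 and FERMT3. A match describes letters only, and windows of the same gene can share bases.

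Most of the adhesion genes were expressed in the line. As CPM per kilobase of exon (RPKM, mean of the 6 libraries), 26 of the 38 reached 1 RPKM and 14 reached 10 RPKM. Per length, CD82 was the highest at 65.5 RPKM, followed by FERMT3 at 40.5, ITGB1 at 39.3, CD47 at 38.2, CD226 at 38.1, ITGB2 at 36.2 and TLN1 at 34.7 RPKM. Transcripts of both common leukocyte beta chains, ITGB1 and ITGB2, were thus present, with talin (TLN1) and the blood-cell kindlin (FERMT3) at similar RPKM. Further down were ITGAL at 29.3, ITGA4 at 24.3, CD81 at 20.3, ICAM2 at 14.8, ITGAV at 13.2, ALCAM at 12.3 and ICAM3 at 12.2 RPKM. The order depends on the length used: with the length of the coding transcript in place of all exons, CD47 came to 244 RPKM and CD81 to 170.3 RPKM, above CD82 at 116 RPKM, and 27 genes reached 1 RPKM.

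There were 12 genes under 1 RPKM. CD44, the hyaluronan receptor of many activated T cells, measured 0.522, 0.679 and 0.154 CPM in MEF2C hairpin libraries and 0.609, 0.403 and 0.2501 CPM in scramble libraries, or 0.0436 RPKM over all. ITGB7, the gut-homing beta chain, stood at 0.161 RPKM, ITGA3 at 0.331, ITGB5 at 0.237, ITGA1 at 0.135, ESAM at 0.137, L1CAM at 0.0510 and CD48 at 0.969 RPKM. The groups overlapped in each of these except ITGA1. The 4 genes that did not pass the filter were CD9, described below, and ITGA2, ITGB3 and NCAM1. ITGA2 had 1 read in all, NCAM1 had 1, and ITGB3, the platelet beta chain, had 2 reads in MEF2C hairpin libraries and 1 in scramble libraries, all under the floor. Another annotated gene covers 51.6% of the exonic bases of ITGB3, and reads in such shared bases could be left out.

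**Figure D3:**
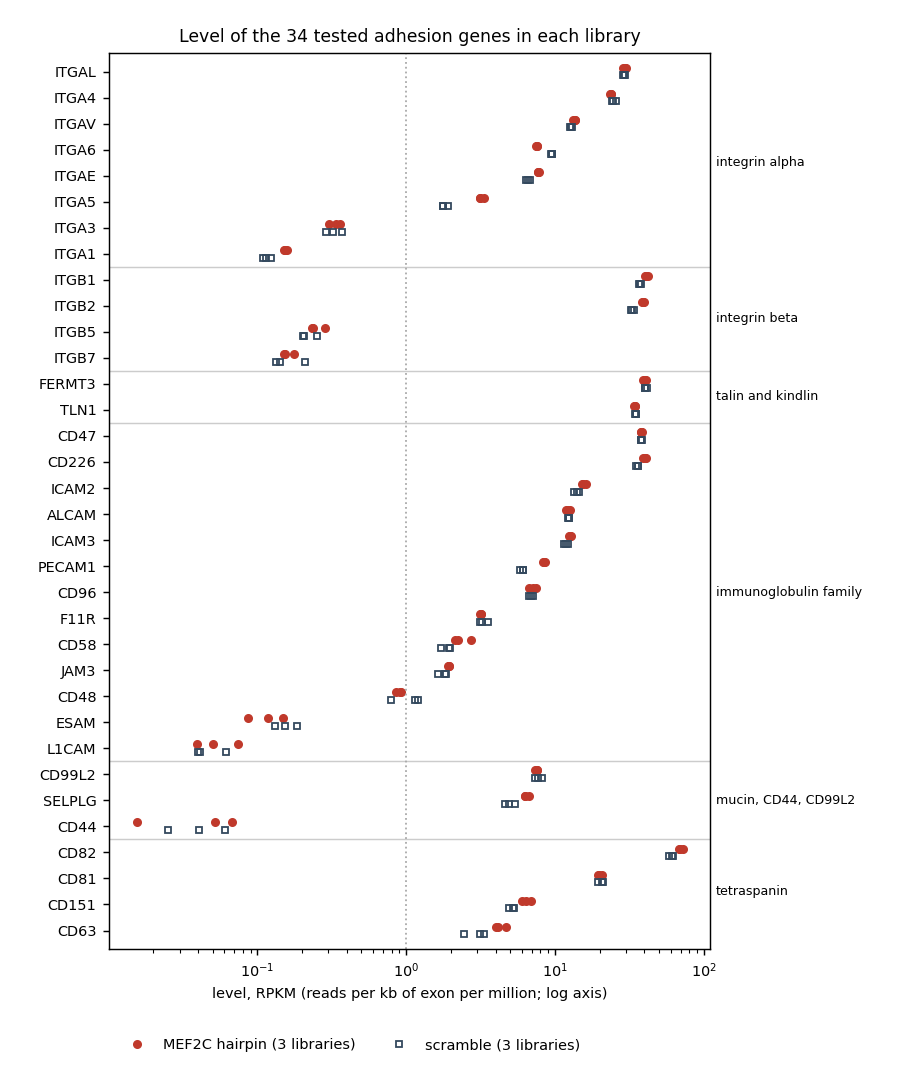
Level of the 34 tested adhesion genes in each library, in RPKM on a log axis (x axis), sorted within roles, with MEF2C hairpin libraries as filled circles above scramble libraries as open squares. The dotted line marks 1 RPKM: CD82 stands farthest to its right, and CD44, L1CAM, ESAM, ITGA1, ITGA3, ITGB5 and ITGB7 lie to its left in every library.

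Among the integrin alpha chains, 4 of 8 tested were higher and 2 were lower, where 13.5% of all tested genes were higher and 15.3% lower. ITGA5 (ENSG00000161638.11, chromosome 12 from 54395261 to 54419460 in GRCh38), the alpha chain of the classical fibronectin receptor, changed most. It measured 23.8, 23.8 and 25.4 CPM in MEF2C hairpin libraries, against 13.5, 13.4 and 14.6 CPM in scramble libraries. All hairpin libraries lay above all scramble libraries, with a log2 fold change of 0.81 ± 0.0583 (SE, adjusted p = 7.25e-14 in edgeR). ITGAE (ENSG00000083457.12, chromosome 17), the CD103 chain of intraepithelial T cells, measured 52.2, 51.4 and 51.3 CPM with the MEF2C hairpin, against 42.9, 44.3 and 45.2 CPM with the scramble hairpin. The groups did not overlap, and its log2 fold change was 0.23 (SE 0.0380, edgeR adjusted p = 1.04e-05). The known beta partner of ITGAE is ITGB7, which measured 0.791, 0.689 and 0.674 CPM in MEF2C hairpin libraries and 0.641, 0.941 and 0.6002 CPM in scramble libraries, with overlap (edgeR adjusted p = 0.995). Exons of another gene, ZNF740, cover 42.1% of the exonic bases of ITGB7, and reads in such shared bases could be left out.

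ITGA6 (ENSG00000091409.17, chromosome 2 from 172427354 to 172506282 in GRCh38), a laminin receptor chain, went the other way. Its level was 48.9, 49.4 and 49.5 CPM in MEF2C hairpin libraries, against 62.8, 61.3 and 62.5 CPM in scramble libraries. The hairpin libraries were all below the scramble libraries by more than 10 CPM, with a log2 fold change of -0.34 ± 0.0351 (SE, adjusted p = 8.62e-10 in edgeR). ITGA4, the VLA-4 chain that binds VCAM1 and fibronectin, measured 186, 188 and 188 CPM with the MEF2C hairpin and 203, 194 and 190.3 CPM with the scramble hairpin. The groups did not overlap, but the log2 fold change was only -0.07 (SE 0.0246, edgeR adjusted p = 0.0415), and the call held in 3 of 14 alternatives (adjusted p from 0.0130 to 0.339). It was lost without any 1 MEF2C hairpin library and without scramble replicate 1 or 2. ITGAV, the vitronectin receptor chain, measured 109.5, 112 and 112 CPM in MEF2C hairpin libraries and 105, 104 and 108 CPM in scramble libraries. Its log2 fold change of 0.08 ± 0.0272 (SE, adjusted p = 0.0277 in edgeR) passed in 8 of 14 alternatives (adjusted p from 0.00215 to 0.126), but not without MEF2C hairpin replicate 2 or 3 or scramble replicate 1 or 2. ITGA1, a collagen receptor chain, was scarce, at 2.84, 2.94 and 2.79 CPM with the MEF2C hairpin and 2.31, 2.13 and 2.03 CPM with the scramble hairpin. Its log2 fold change of 0.41 ± 0.151 (SE, adjusted p = 0.0386 in edgeR) passed in 7 of 14 alternatives (adjusted p from 0.0274 to 0.126), but not without any 1 MEF2C hairpin library or scramble replicate 2 or 3.

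ITGAL, the LFA-1 alpha chain and the highest alpha chain per kilobase of all annotated exons (with coding-transcript length, ITGA4 was higher, at 45.8 against 36.4 RPKM), measured 195, 192 and 186 CPM in MEF2C hairpin libraries, against 187, 191 and 189 CPM in scramble libraries. The groups overlapped, with a log2 fold change of 0.02 ± 0.0237 (SE, adjusted p = 0.685 in edgeR). ITGA3 did not pass the test either (3.27 CPM with the MEF2C hairpin and 3.22 CPM with the scramble hairpin, edgeR adjusted p = 0.926).

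The summed level of the alpha chains overlapped between the groups, while 6 of the 9 shares within it did not: those of ITGA1, ITGA5, ITGAE and ITGAV were higher and those of ITGA4 and ITGA6 lower. The CPM values of the same 6 genes did not overlap either, as in 39.9% of all tested genes. The shares are thus no separate result. The RPKM of the 9 alpha genes summed to 85.9, 86.2 and 85.2 in MEF2C hairpin libraries, against 85.7, 84.9 and 85.2 in scramble libraries, and the groups overlapped (exact permutation test over libraries, two-sided p = 0.2). Within that sum ITGA5 took 3.75% ± 0.165 in MEF2C hairpin libraries and 2.14% ± 0.101 in scramble libraries, and ITGA6 took 8.80% ± 0.0908 and 11.2% ± 0.103 (SD, n = 3 each; exact permutation p = 0.1 for both). ITGAE took 9.05% ± 0.0800 in MEF2C hairpin and 7.77% ± 0.234 in scramble libraries, ITGAV 15.8% ± 0.248 and 15.1% ± 0.279, and ITGA4 27.6% ± 0.237 and 29.1% ± 0.899 (SD, n = 3 each; exact permutation p = 0.1 for each, as for ITGA1). With 3 libraries a group, 0.1 is the smallest p this test can give, so that none of these shares could pass 0.05. ITGAL held 34.4% ± 0.644 in MEF2C hairpin and 34.2% ± 0.488 in scramble libraries (SD, n = 3 each, exact permutation p = 0.7). Shares of RPKM depend on the exon lengths used.

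**Figure D4:**
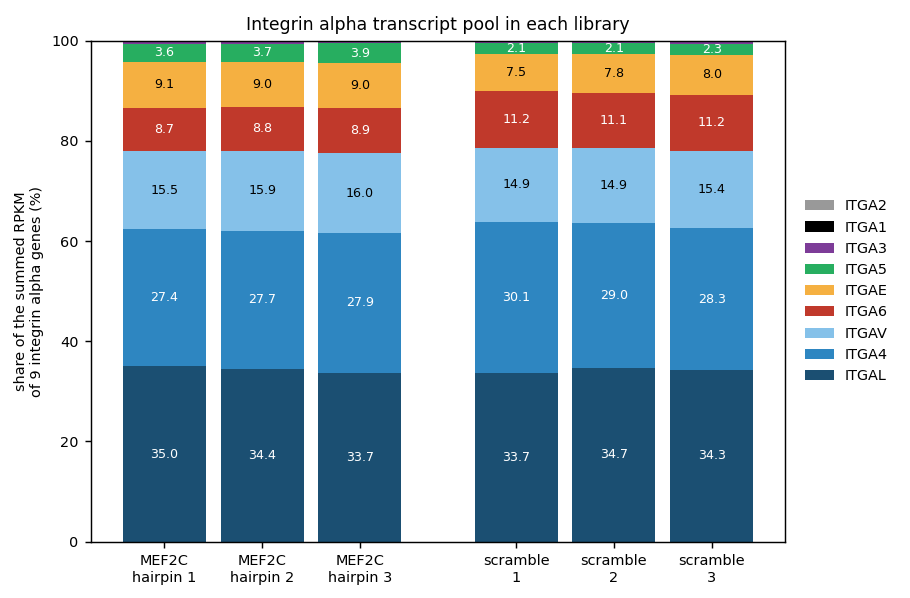
Share of the summed RPKM of the 9 integrin alpha genes held by each gene (y axis, %), 1 bar per library with the MEF2C hairpin libraries at the left. ITGAL and ITGA4 make up most of every bar, the ITGA6 band is thinner and the ITGA5 band thicker in all 3 MEF2C hairpin libraries.

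Both beta chains above 1 RPKM rose, and the other 2 that were tested did not pass. Of all tested genes, 13.5% rose and 15.3% fell. The 2 chains that rose averaged over 10 CPM, a level at which 16.6% of all tested genes rose and 27.5% fell. ITGB2 (ENSG00000160255.19, chromosome 21), the beta chain of LFA-1, measured 271, 262 and 265 CPM in MEF2C hairpin libraries, against 221, 225 and 232 CPM in scramble libraries. Every hairpin library was above every scramble library, with a log2 fold change of 0.23 ± 0.0231 (SE, adjusted p = 2.77e-10 in edgeR). ITGB1 (ENSG00000150093.20, chromosome 10), the partner of ITGA4, ITGA5, ITGA6 and others, measured 244, 246 and 253 CPM with the MEF2C hairpin, against 227, 224 and 221 CPM with the scramble hairpin. The groups again did not overlap (log2 fold change 0.14 ± 0.0226 SE, adjusted p = 3.51e-06 in edgeR). ITGB5, a partner of ITGAV, measured 1.62 CPM with the MEF2C hairpin and 1.43 CPM with the scramble hairpin and did not pass (edgeR adjusted p = 0.544). The RPKM of the 5 beta genes summed to 80.8, 79.9 and 81.6 in MEF2C hairpin libraries, against 70.6, 70.8 and 71.4 in scramble libraries, without overlap (exact permutation p = 0.1, the smallest possible).

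The ratio of beta to alpha transcripts of the same receptor was read in each library. The RPKM of ITGB2 over that of ITGAL was 1.33 ± 0.0285 in MEF2C hairpin libraries and 1.14 ± 0.0268 in scramble libraries (SD, n = 3 each). ITGB1 over ITGA4 was 1.74 ± 0.0321 in MEF2C hairpin and 1.504 ± 0.0341 in scramble libraries, and ITGB1 over ITGA6 was 5.46 ± 0.0851 and 3.92 ± 0.0635 (SD, n = 3 each). ITGB1 over ITGA5 moved the opposite way, at 12.8 ± 0.239 in MEF2C hairpin and 20.4 ± 1.14 in scramble libraries (SD, n = 3 each). In all 4 ratios the groups did not overlap, with an exact permutation p of 0.1 for each, the smallest possible. The CPM values of the genes in these ratios, ITGAL excepted, did not overlap either, as in 39.9% of all tested genes. Several ratios share ITGB1, and the ratios are thus no separate result.

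Neither adaptor passed the test. TLN1, the talin that opens integrins from inside the cell, measured 349.6, 345 and 346 CPM in MEF2C hairpin libraries and 352, 356 and 349.9 CPM in scramble libraries. The hairpin values were all just below the scramble values, with a log2 fold change of -0.02 ± 0.0206 (SE, adjusted p = 0.438 in edgeR). FERMT3, kindlin-3, which works with talin in blood cells, measured 126, 124 and 120.3 CPM with the MEF2C hairpin and 123, 123 and 127 CPM with the scramble hairpin, with overlap (log2 fold change -0.01 ± 0.0266 SE, adjusted p = 0.829 in edgeR). After correction for GC content and gene length, both were called lower, at adjusted p = 0.00868 for TLN1 and 0.00325 for FERMT3.

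Of 13 tested receptors of the immunoglobulin family, 4 were higher and 0 lower, against 13.5% and 15.3% of all tested genes. PECAM1 (ENSG00000261371.6, chromosome 17 from 64319415 to 64413776 in GRCh38), the CD31 receptor that binds itself on neighbouring cells, measured 67.2, 66.1 and 64.7 CPM in MEF2C hairpin libraries, against 47.2, 45.6 and 47.4 CPM in scramble libraries. The groups lay far apart relative to their spread, with a log2 fold change of 0.50 ± 0.0357 (SE, adjusted p = 7.04e-14 in edgeR). Endothelial and stromal markers, among which PECAM1 was not counted, summed to 0.674 to 1.04 CPM with the MEF2C hairpin and 0.684 to 0.850 CPM with the scramble hairpin. Of these 12, 6 had no read (CDH5, COL1A2, PDGFRA, LUM, DCN and CXCL12), 3 were tested and 0 passed. PDGFRB had 13, 35 and 16 reads in MEF2C hairpin libraries and 7, 3 and 10 in scramble libraries, without overlap in CPM (log2 fold change 1.31, edgeR adjusted p = 0.0638, unadjusted p = 0.0194), while KDR (edgeR adjusted p = 0.343) and COL1A1 (edgeR adjusted p = 0.969) overlapped. Their part in the PECAM1 level was not tested. CD226 (ENSG00000150637.9, chromosome 18), the activating receptor DNAM-1, measured 535, 552 and 563 CPM in MEF2C hairpin libraries, against 496, 479.7 and 495 CPM in scramble libraries. All hairpin libraries were higher, with a log2 fold change of 0.17 ± 0.0212 (SE, adjusted p = 7.21e-08 in edgeR). ICAM2, a ligand of LFA-1, measured 50.5, 49.1 and 52.4 CPM with the MEF2C hairpin, against 43.5, 46.0 and 47.2 CPM with the scramble hairpin. The groups did not overlap (log2 fold change 0.15 ± 0.0398 SE, adjusted p = 0.00298 in edgeR), and exons of PRR29 cover 26.8% of its exonic bases. CD58, the ligand of CD2, measured 3.79, 4.88 and 4.01 CPM in MEF2C hairpin libraries and 3.48, 3.07 and 3.52 CPM in scramble libraries. Its log2 fold change of 0.34 ± 0.131 (SE, adjusted p = 0.0479 in edgeR) passed in 6 of 14 alternatives (adjusted p from 0.0303 to 0.369), but not without MEF2C hairpin replicate 2 or any 1 scramble library.

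CD47, the integrin-associated protein that also signals to phagocytes through SIRPA, measured 312, 317 and 313 CPM in MEF2C hairpin libraries and 314, 310.2 and 319 CPM in scramble libraries. The groups overlapped, and the log2 fold change was 0.00 (SE 0.0211, edgeR adjusted p = 0.981). ALCAM, the ligand of CD6, measured 85.7, 87.9 and 91.0 CPM with the MEF2C hairpin and 89.7, 88.1 and 89.0 CPM with the scramble hairpin, with overlap (edgeR adjusted p = 0.806). ICAM3, another LFA-1 ligand, measured 37.7, 36.6 and 37.2 CPM with the MEF2C hairpin and 33.9, 36.2 and 35.1 CPM with the scramble hairpin. Its groups did not overlap, but the test was not passed (log2 fold change 0.08 ± 0.0431 SE, adjusted p = 0.155 in edgeR), and another annotated gene covers 71.2% of its exonic bases.

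CD96, a receptor related to CD226, measured 41.1 ± 2.11 CPM in MEF2C hairpin and 39.9 ± 1.13 CPM in scramble libraries (SD, n = 3 each; edgeR adjusted p = 0.580). The junctional proteins JAM3, at 10.5 and 9.68 CPM, and F11R, at 16.1 and 16.7 CPM (means of MEF2C hairpin and of scramble libraries), did not pass (edgeR adjusted p = 0.253 and 0.600), although the groups did not overlap in JAM3. Another gene covers 36.6% of the exonic bases of F11R. CD48, a ligand of CD244, measured 2.92 ± 0.101 CPM in MEF2C hairpin and 3.42 ± 0.720 CPM in scramble libraries (SD, n = 3 each; edgeR adjusted p = 0.245), with 29.8% of its exonic bases under another gene. ESAM (edgeR adjusted p = 0.539) and L1CAM (edgeR adjusted p = 0.776), both under 1 CPM in every library, did not pass either.

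SELPLG, the PSGL-1 mucin that leukocytes use to roll on selectins, measured 15.8, 15.7 and 16.9 CPM in MEF2C hairpin libraries, against 13.5, 12.3 and 11.5 CPM in scramble libraries. The groups did not overlap, with a log2 fold change of 0.37 ± 0.0683 (SE, adjusted p = 4.52e-05 in edgeR). CD99L2, a relative of CD99 in leukocyte passage through vessel walls, measured 43.4 ± 0.639 CPM with the MEF2C hairpin and 44.7 ± 2.36 CPM with the scramble hairpin (SD, n = 3 each; edgeR adjusted p = 0.550), and CD44 did not pass (edgeR adjusted p = 0.842).

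Of 4 tested tetraspanins, 3 were higher and 0 lower, against 13.5% and 15.3% of all tested genes. CD63 (ENSG00000135404.12, chromosome 12), a tetraspanin of lysosomes and exosomes, measured 11.01, 12.3 and 10.6 CPM in MEF2C hairpin libraries, against 8.80, 6.48 and 8.22 CPM in scramble libraries. Its groups did not overlap, with a log2 fold change of 0.53 ± 0.0904 (SE, adjusted p = 1.62e-05 in edgeR). CD151 (ENSG00000177697.19, chromosome 11), the close partner of laminin-binding integrins such as ITGA6 with ITGB1, measured 27.3, 25.4 and 23.6 CPM with the MEF2C hairpin, against 19.4, 20.9 and 20.6 CPM with the scramble hairpin. It was higher in all hairpin libraries (log2 fold change 0.33 ± 0.0560 SE, adjusted p = 1.42e-05 in edgeR), the opposite direction to ITGA6. CD82 (ENSG00000085117.13, chromosome 11 from 44564427 to 44620363 in GRCh38), known as a suppressor of metastasis in carcinomas, measured 293, 283 and 277 CPM in MEF2C hairpin libraries, against 237, 250.3 and 252 CPM in scramble libraries. The groups did not overlap, with a log2 fold change of 0.21 ± 0.0242 (SE, adjusted p = 9.43e-09 in edgeR). CD81, a tetraspanin of many cell types, measured 153, 147 and 145 CPM with the MEF2C hairpin and 144, 153 and 157 CPM with the scramble hairpin. It overlapped between the groups (log2 fold change -0.03 ± 0.0277 SE, adjusted p = 0.489 in edgeR), and was called lower after correction for GC content and gene length (adjusted p = 0.0103).

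CD9 (ENSG00000010278.15, chromosome 12 from 6199715 to 6238271 in GRCh38), a tetraspanin of platelets and many epithelia, was near the detection floor. It had 18, 14 and 29 reads in MEF2C hairpin libraries, against 1, 0 and 4 reads in scramble libraries. All 3 hairpin libraries were above the scramble libraries, and the most reads stood in MEF2C hairpin replicate 3, the least deep of these libraries and the one with the largest share of reads aligned to more than 1 place. Summed over libraries, this was 0.290 CPM (exact Poisson 95% interval 0.222 to 0.373) with the MEF2C hairpin and 0.0299 CPM (0.00972 to 0.0699) with the scramble hairpin, a ratio of 9.70 with a counting interval of 3.94 to 30.9 that covers counting error only. CD9 did not pass the filter and is given with no test, since its reads could pass one only through the MEF2C hairpin group. Megakaryocyte markers, which platelets carry, summed to 1.26 to 1.52 CPM with the MEF2C hairpin and 0.946 to 1.12 CPM with the scramble hairpin, with PF4, PPBP and GP1BB at 0 reads in every library. Of this list of 8, 2 were tested and 0 passed. ITGA2B, the platelet alpha chain, had 37, 39 and 42 reads in MEF2C hairpin libraries and 19, 18 and 18 in scramble libraries (log2 fold change 0.84, edgeR adjusted p = 0.102, unadjusted p = 0.0353). The platelet receptor GP6 had 36, 98 and 36 reads with the MEF2C hairpin and 40, 32 and 44 with the scramble hairpin (edgeR adjusted p = 0.740), and GP1BA had 1 read in each MEF2C hairpin library and 0 in each scramble library. Markers of the embryonic kidney line used to make the virus summed to 26.9 to 28.3 CPM with the MEF2C hairpin and 24.6 to 26.3 CPM with the scramble hairpin, mostly from PODXL at 24.0 and 21.6 CPM (means of MEF2C hairpin and of scramble libraries). Of this list of 8, 4 were tested. PODXL and GPC3 were higher (50%, against 13.5% of all tested genes), and CRABP2 was lower (25%, against 15.3%). KRT8, at 0.966 and 0.633 CPM (means of MEF2C hairpin and of scramble libraries), did not pass (edgeR adjusted p = 0.106), although its groups did not overlap. EPCAM and LIN28B had 0 reads. GPC3 averaged 0.659 CPM with the MEF2C hairpin and 0.341 CPM with the scramble hairpin (log2 fold change 0.99, edgeR adjusted p = 0.0351). That is above the CD9 means over libraries of 0.334 CPM with the MEF2C hairpin and 0.0276 CPM with the scramble hairpin. The part of the cells these lists mark in the CD9 reads was not tested. Markers of B cells (4.17 to 4.31 and 3.09 to 3.63 CPM), myeloid cells (7.05 to 7.46 and 5.85 to 6.43 CPM) and natural killer cells (5.28 to 5.97 and 5.83 to 6.95 CPM) were low in both MEF2C hairpin and scramble libraries. Of 4 tested myeloid genes, 1, CEBPA, was called higher (25%, against 13.5% of all tested genes).

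The genes that activate these receptors, bind them or modify them were read from 5 further lists of 100 genes, of which 69 were tested. Of these, 17 were higher (24.6%), against 13.5% of all tested genes, and 13 were lower (18.8%), against 15.3% of all tested genes. Many of the 69 averaged at least 10 CPM, a level at which 16.6% of all tested genes were higher and 27.5% lower. Of 12 other integrin subunits, 5 were tested and 1 rose (20%, against 13.5% of all tested genes). That was ITGB4, another beta partner of ITGA6, at 1.53, 1.27 and 1.598 CPM in MEF2C hairpin libraries against 0.978, 0.784 and 0.550 CPM in scramble libraries (log2 fold change 0.91 ± 0.241 SE, adjusted p = 0.00318 in edgeR). Of 17 other tetraspanins and partners, 14 were tested, 4 rose (28.6%, against 13.5% of all tested genes) and 1 fell (7.14%, against 15.3%). PTGFRN, which averaged under 1 CPM over the libraries, changed most in this list. It measured 1.18, 1.62 and 1.31 CPM in MEF2C hairpin libraries, against 0.305, 0.538 and 0.333 CPM in scramble libraries. Its log2 fold change was 1.85 (SE 0.278, edgeR adjusted p = 1.76e-06). TSPAN14 rose by 0.14 on the log2 scale (edgeR adjusted p = 0.000372), TSPAN4 rose by 0.37 (edgeR adjusted p = 0.00810) and TSPAN13 fell by 0.13 (edgeR adjusted p = 0.00498).

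Of 33 genes of integrin activation and linkage to actin, 26 were tested, 6 rose (23.1%, against 13.5% of all tested genes) and 9 fell (34.6%, against 15.3%). Nearly all of the tested genes of this list averaged at least 10 CPM. Among all tested genes at that level, 16.6% were higher and 27.5% lower. The summed level of the list was 3390 to 3457 CPM in MEF2C hairpin libraries, against 3654 to 3664 CPM in scramble libraries. RASSF5, the RAPL protein that carries the Rap1 signal to LFA-1, measured 101, 97.7 and 103 CPM with the MEF2C hairpin, against 134, 130.1 and 129 CPM with the scramble hairpin. It was lower in every hairpin library (log2 fold change -0.38 ± 0.0272 SE, adjusted p = 4.65e-14 in edgeR). FLNA, filamin A, which binds integrin tails and actin, measured 1019 ± 7.83 CPM in MEF2C hairpin and 1169 ± 7.54 CPM in scramble libraries (SD, n = 3 each; log2 fold change -0.20, edgeR adjusted p = 3.12e-11), and makes up much of that sum. LIMS1, the PINCH partner of integrin-linked kinase, fell by 0.28 on the log2 scale (SE 0.0310, edgeR adjusted p = 3.67e-09).

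Of 27 ligands and counter-receptors, 14 were tested, 4 rose (28.6%, against 13.5% of all tested genes) and 1 fell (7.14%, against 15.3%). CD6, the receptor of ALCAM on T cells, measured 60.8, 61.4 and 59.0 CPM in MEF2C hairpin libraries, against 40.7, 43.1 and 43.2 CPM in scramble libraries, without overlap (log2 fold change 0.52 ± 0.0378 SE, adjusted p = 1.18e-13 in edgeR), while ALCAM itself did not pass. NECTIN2, a ligand of CD226, was at 3.51 ± 0.565 CPM in MEF2C hairpin and 2.34 ± 0.286 CPM in scramble libraries (SD, n = 3 each; log2 fold change 0.59, edgeR adjusted p = 0.00235). NECTIN3, another nectin, fell by 0.29 on the log2 scale (SE 0.0404, edgeR adjusted p = 3.47e-07). Of 11 enzymes that dress selectin ligands such as SELPLG with sugars and sulfate, 10 were tested. Of these, 2 rose (20%, against 13.5% of all tested genes) and 2 fell (20%, against 15.3%). Most of the tested enzymes averaged at least 10 CPM, a level at which 16.6% of all tested genes were higher and 27.5% lower. The tyrosine sulfotransferase TPST2 rose by 0.37 (SE 0.0484, edgeR adjusted p = 1.17e-07). TPST1, its paralog, measured 0.991 ± 0.0373 CPM in MEF2C hairpin and 1.57 ± 0.0823 CPM in scramble libraries (SD, n = 3 each; log2 fold change -0.65, edgeR adjusted p = 0.0160), and lost its call without scramble replicate 3 (adjusted p = 0.0547). B4GALT1, a galactosyltransferase, fell by 0.15 (SE 0.0347, edgeR adjusted p = 0.00121).

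**Figure D5:**
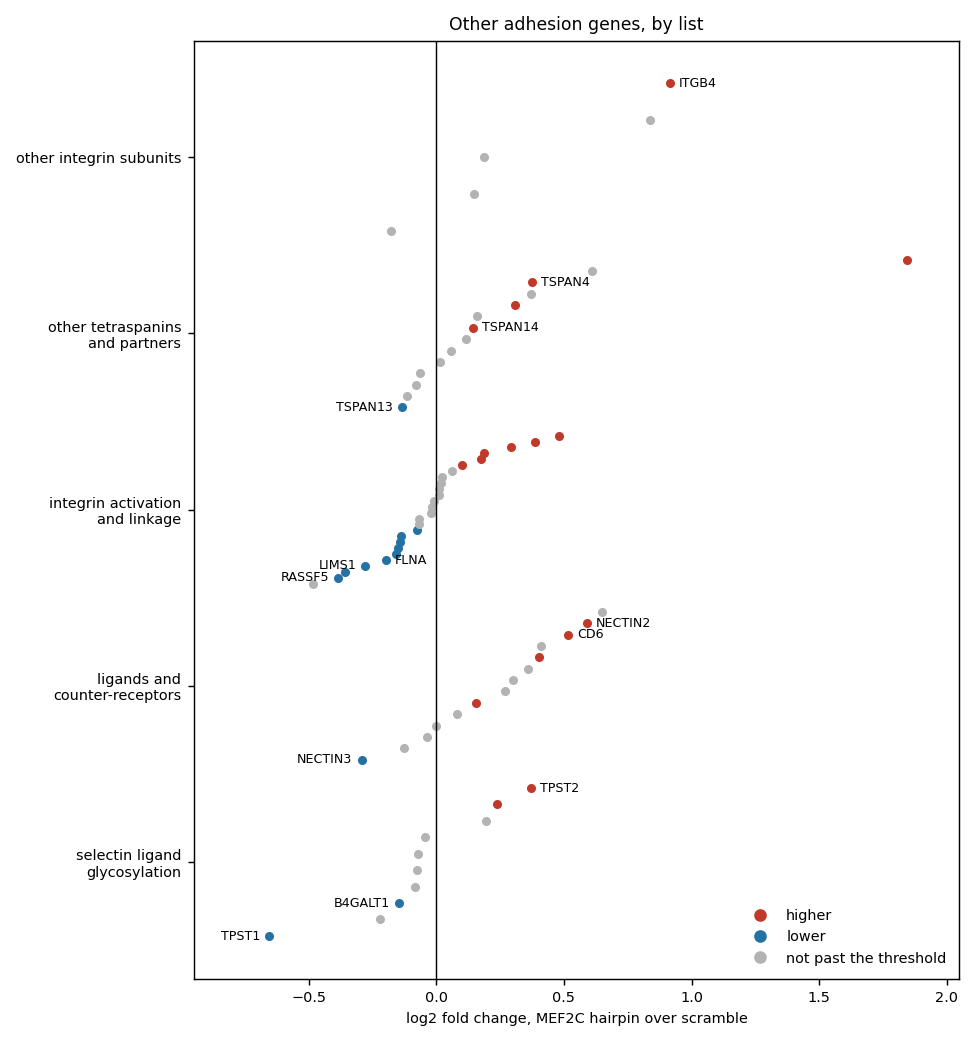
Log2 fold change of the 69 tested genes of the 5 further lists (x axis, MEF2C hairpin over scramble), sorted within each list, with red for higher (17 genes), blue for lower (13 genes) and grey for genes that did not pass. The genes named for each list in the text are labelled, except PTGFRN, the red point farthest to the right. The list of integrin activation and linkage holds 9 of the 13 blue points and 26 of the 69 tested genes.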

How the data were processed

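RNA was isolated with TRIzol and made into TruSeq libraries, per the labels' protocols. Trim Galore, STAR and HTSeq on hg38 are named, without versions, in the submitters' processing notes. The strand setting and annotation release are not given in the sources used here. The authors deposited raw counts of reads per gene as whole numbers. The 5 summary lines that name no gene took 19.2% to 31.4% of reads and stayed out of library sizes and tests.

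Genes were kept by filterByExpr (minimum count 10), scaled by TMM, and tested on the whole table with edgeR 4.0.16 under R 4.3.3 (quasi-likelihood, robust, group as the only term), with Benjamini-Hochberg adjustment over 17677 genes and a threshold of 0.05. The SE was taken as the size of the log2 fold change divided by the root of the F statistic. CPM uses TMM-scaled library sizes, and RPKM divides it by the exon union of GENCODE 29, which also gave positions and overlaps. Over 25% of exonic bases lie under other genes for 6 of the 38 genes. Intervals of CPM are exact Poisson, that of the CD9 ratio comes from an exact binomial interval on the summed reads, and fits were tested on simulated data. Chi-square per gene between libraries of 1 group ran from 3.31 to 4.50, above sampling noise, so none was counted as a repeat deposit.

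All 38 genes were reported. Those called that averaged 1 CPM or more, and those at 10 RPKM or more, were given in every library. Of each further list, up to 3 called genes averaging 1 CPM or more with the smallest adjusted p were named. PTGFRN, under that level, was named in addition after seeing the data. The genes, lists and tests were chosen with earlier results of these data known. Alternatives were DESeq2 size factors, upper-quartile scaling, no filter, at least 1 CPM in 3 libraries, DESeq2 1.42.0, limma-voom (limma 3.58.1), each library left out, a replicate block, and a correction for GC content and length. Applying them to the named genes of the further lists, PTGFRN excepted, was chosen after seeing the data.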

Additional observations from a re-analysis of the deposited data

How the results depend on the processing

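The counts of all called genes (4113 to 5454), of adhesion genes called higher (11 to 14), of further genes called higher (15 to 21) or lower (12 to 18), and of adhesion genes at or above 1 RPKM (26 to 27) stayed within 1.5 times the reported values under every alternative. CD9 is among the adhesion genes called higher under 5 alternatives: no filter, and without MEF2C hairpin replicate 2 or any 1 scramble library. Its reads lie almost wholly in the MEF2C hairpin group, so its part in those counts is no support for their stability. The 2 adhesion genes called lower became 1 with upper-quartile scaling, no filter, at least 1 CPM in 3 libraries, DESeq2 or the replicate block, 1 to 2 when a library was left out, and 4 with the correction for GC content and length (ITGA6, CD81, FERMT3 and TLN1). The cause was not tested. CD48, not called in the fit reported, was called lower without scramble replicate 2 (adjusted p = 0.0461).

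The sign turned in 9 adhesion genes, 0 of them called. With the correction for GC content and length, the log2 fold changes were -0.0276 for ITGA3, -0.0171 for ITGAL, 0.0194 for CD47 and 0.0065 for ALCAM. With upper-quartile scaling they were 0.0067 for ITGB7, 0.0097 for CD47 and 0.0003 for FERMT3. With at least 1 CPM in 3 libraries they were 0.0107 for CD47 and 0.0014 for FERMT3, with no filter 0.0011 for CD47, and with limma-voom 0.0311 for ITGB7. With a library left out they ran from -0.0483 to 0.1203 for ITGA3, -0.1261 to 0.2084 for ITGB7, -0.2997 to 0.5402 for CD44, -0.0088 to 0.0077 for CD47, -0.0910 to 0.0031 for F11R, -0.0531 to 0.4152 for L1CAM, -0.0346 to 0.0055 for ALCAM and -0.0253 to 0.0075 for FERMT3.

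Same-numbered libraries of the groups deviated together with correlations of -0.0203, -0.00181 and 0.0659, so the numbers were not taken to pair them. The replicate block gave 4892 called genes, and 13 adhesion genes higher and 1 lower. Depth limits MEF2C, ITGA2, ITGB3 and NCAM1, at or under 3 reads in every library, and CD9. Exons shared with another gene also limit ITGB3. The replicates are technical, so the spread between cultures was not measured. The targeted gene was not detectable in either group, so no change can be tied to its loss.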
